A study of Mus musculus with 8 samples.

Results

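The muscle nicotinic acetylcholine receptor is built from subunits encoded by 5 genes, Chrna1, Chrnb1, Chrnd, Chrne and Chrng, and the transcript levels of these 5 genes were examined in mouse soleus, a postural calf muscle rich in slow fibres. The genes were chosen by symbol from the 22880 gene identifiers counted in each muscle, and all 5 were among the 14001 genes with enough reads to be tested. The transcriptomes came from 4 control mice (Dnm2 +/+) and 4 Dnm2 +/K562E mice, all male, 2 months old and on a C57BL/6 background, with no treatment. The Dnm2 +/K562E mice carry a point mutation in 1 copy of the gene for dynamin 2, a GTPase that cuts membrane vesicles free, whose human equivalent causes a dominant Charcot-Marie-Tooth neuropathy. The mutation was knocked into the endogenous gene and leaves a loxP site in an intron, so that every cell of the body carries it and not only the muscle fibre. The study asked what the mutation does to muscle transcription, next to a histological search for denervated endplates. In soleus of this age, that search found slightly fewer fully innervated endplates. The paper reported no significant rise in fully denervated ones and no grouping of fibre types. Its main finding in these mice was a myopathy without an evident neuropathy. In soleus of this age it described smaller fibres and more macrophages. Fibres with embryonic or regenerating myosin were also significantly more frequent there, at low and variable levels.

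The receptor is the ligand-gated channel that turns acetylcholine released by the motor nerve into depolarization of the muscle fibre. Each receptor is a pentamer of alpha (Chrna1), beta (Chrnb1) and delta (Chrnd) subunits completed by either a gamma (Chrng) or an epsilon (Chrne) subunit. The gamma form is the fetal receptor, which is spread along the fibre before innervation, and the epsilon form replaces it at the mature endplate. In innervated adult fibres, subunit genes are transcribed mainly by the few nuclei beneath the synapse, and electrical activity keeps them low elsewhere. After denervation, transcripts of the alpha, beta, delta and gamma subunits return along the fibre, whereas the epsilon gene stays tied to the synaptic nuclei.

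Total counts per muscle ran from 33407430 to 48832814 reads, and counts of any 2 mice of the same genotype differed by more than sampling noise, so all 8 were kept as separate replicates. Levels are given as normalized CPM, which are read counts per fixed library size after scaling by TMM factors, a correction for differences in library composition. The factors of controls (0.9145 to 0.9594) were below those of Dnm2 +/K562E mice (1.037 to 1.103), and without them the median log2 fold change of all tested genes moved from 0.0074 to 0.22. The tissue label was borne out by slow fibre genes, with Myh7, the slow myosin heavy chain, at 6012 ± 263 normalized CPM (SD, n = 4) in controls and 4192 ± 391 normalized CPM (SD, n = 4) in Dnm2 +/K562E mice. Dnm2 itself measured 68.8, 68.5, 59.2 and 68.7 normalized CPM in controls 1 to 4 and 74.2, 76.1, 73.1 and 70.2 in Dnm2 +/K562E mice 1 to 4. The log2 fold change of Dnm2 was 0.15 (SE 0.0655) with an adjusted p = 0.0909 (Benjamini-Hochberg, quasi-likelihood test of edgeR), and since gene counts sum both alleles, this does not check the genotype labels.

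The promoters of the subunit genes are known to be read by myogenic factors such as myogenin, which bind E-boxes, and the epsilon promoter by ETS factors of the GABP type, which bind an N-box at synaptic nuclei. The stretches upstream of 4 of the genes are printed because the genes changed to different extents. Each is RefSeq sequence on GRCm38.p6 in the direction of the gene, 228 bases long, from 250 to 23 bases upstream of the RefSeq transcription start, except that Chrnb1 is shown from 130 bases upstream, since Fgf11 has an exon beyond that point. None of the printed bases is in an annotated exon, and the Chrng stretch lies in the first intron of a transcript that starts farther upstream. The Chrna1 stretch is chr2:73580361-73580588 (minus strand), the Chrnb1 stretch chr11:69795960-69796067 (minus strand), the Chrne stretch chr11:70619217-70619444 (minus strand) and the Chrng stretch chr1:87205561-87205788 (plus strand). Capitals mark E-boxes (CANNTG, which reads the same on both strands) and N-boxes (CCGGAA, searched on both strands).
Chrna1: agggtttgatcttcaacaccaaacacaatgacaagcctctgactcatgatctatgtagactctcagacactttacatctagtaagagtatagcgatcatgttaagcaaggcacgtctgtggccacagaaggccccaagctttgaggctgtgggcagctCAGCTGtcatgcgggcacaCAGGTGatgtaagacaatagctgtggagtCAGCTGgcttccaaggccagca
Chrnb1: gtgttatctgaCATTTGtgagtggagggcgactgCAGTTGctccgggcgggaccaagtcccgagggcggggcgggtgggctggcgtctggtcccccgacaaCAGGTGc
Chrne: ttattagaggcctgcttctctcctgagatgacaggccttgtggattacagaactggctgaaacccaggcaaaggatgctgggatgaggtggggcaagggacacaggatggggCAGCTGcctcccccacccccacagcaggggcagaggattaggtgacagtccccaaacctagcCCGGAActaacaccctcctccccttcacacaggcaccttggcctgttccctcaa
Chrng: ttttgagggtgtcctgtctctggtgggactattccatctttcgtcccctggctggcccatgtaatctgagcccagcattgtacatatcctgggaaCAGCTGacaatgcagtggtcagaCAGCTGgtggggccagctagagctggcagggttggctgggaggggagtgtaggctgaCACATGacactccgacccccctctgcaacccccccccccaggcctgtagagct
The promoter sequences at hand held a stretch for 4 of the 5 genes and none for Chrnd.

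By this letter search, Chrna1, Chrnb1 and Chrng each had 3 E-boxes and Chrne had 1. The core CAGCTG, a form of the E-box common in muscle genes, occurred at 92 and 44 bases upstream of the start in Chrna1, at 155 and 132 bases in Chrng, at 138 bases in Chrne and nowhere in the Chrnb1 stretch. Among 32851 promoter stretches of 228 bases, 10.2% held at least 3 E-boxes, 11.8% held at least 1 CAGCTG and 1.02% held at least 2. The single N-box, at 76 bases upstream, was in Chrne, and 10.1% of all stretches held 1 or more. These are matches of letters and do not show that a factor was bound.

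All 5 subunit genes were called higher in Dnm2 +/K562E soleus (a log2 fold change of 0.58 or more with an adjusted p under 0.05), where 12.9% of all tested genes were called higher and 20.7% were called in either direction. None was called lower, as 7.85% of tested genes were. In each of the 5, all 4 Dnm2 +/K562E mice lay above all 4 controls, as did 20.6% of all tested genes. The sizes were unequal. Chrnd and Chrng rose about 6-fold, Chrna1 and Chrnb1 between 2 and 3-fold, and Chrne by 1.54-fold, the last by a margin that did not survive every omission of a mouse. In whole-muscle RNA, more transcript per nucleus and more nuclei or fibres that transcribe a gene cannot be told apart.

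Chrna1 encodes the alpha subunit, which carries most of the acetylcholine binding site (chr2:73563215-73580338, minus strand). It measured 31.8, 32.7, 30.5 and 26.9 normalized CPM in controls 1 to 4 and 89.5, 81.0, 95.5 and 80.2 normalized CPM in Dnm2 +/K562E mice 1 to 4. The groups were far apart, with the lowest Dnm2 +/K562E mouse at 2.45 times the highest control. The mean rose from 30.5 ± 2.53 to 86.6 ± 7.31 normalized CPM (SD, n = 4 each), a log2 fold change of 1.51 (95% interval 1.32 to 1.69, adjusted p = 6.94e-07, Benjamini-Hochberg, quasi-likelihood test of edgeR). In its transcript, 4.09% of all 31-base stretches also occur elsewhere in the transcriptome, so a small part of its reads is less certain in origin.

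Chrnb1 encodes the beta subunit, through which the receptor is tied to the clustering protein rapsyn (chr11:69784036-69795943, minus strand). Controls 1 to 4 measured 26.03, 19.8, 22.8 and 23.2 normalized CPM, and Dnm2 +/K562E mice 1 to 4 measured 66.1, 51.2, 59.6 and 58.0. Again no values overlapped between genotypes. The mean rose from 22.9 ± 2.56 to 58.7 ± 6.11 normalized CPM (SD, n = 4 each), a log2 fold change of 1.36 (95% interval 1.14 to 1.57, adjusted p = 2.79e-06 by the same test).

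Chrnd encodes the delta subunit, which is common to fetal and adult receptors (chr1:87190607-87200070, plus strand). It lay between 6.47 and 7.60 normalized CPM in the 4 controls, at 7.60, 7.10, 7.12 and 6.47 in controls 1 to 4. The Dnm2 +/K562E mice measured 48.8, 39.5, 38.7 and 50.7 normalized CPM, so that the lowest of them stood at 5.1 times the highest control. The mean rose from 7.07 ± 0.459 to 44.4 ± 6.22 normalized CPM (SD, n = 4 each), a log2 fold change of 2.65 (95% interval 2.41 to 2.89, adjusted p = 1.25e-07, Benjamini-Hochberg, quasi-likelihood test of edgeR). Among all tested genes, Chrnd had the 9th smallest p-value and the 78th largest rise.

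Chrng encodes the gamma subunit of the fetal receptor (chr1:87204657-87212694, plus strand) and was the scarcest of the 5. It was covered by 20, 13, 16 and 14 reads in controls 1 to 4 and by 120, 83, 96 and 128 reads in Dnm2 +/K562E mice 1 to 4. As normalized CPM these were 0.596, 0.386, 0.358 and 0.412 against 3.26, 1.93, 2.29 and 3.46. No control came near a Dnm2 +/K562E mouse, and Dnm2 +/K562E mice 1 and 4 were the highest, as they were for Chrnd. The mean rose from 0.438 ± 0.107 to 2.73 ± 0.741 normalized CPM (SD, n = 4 each), a log2 fold change of 2.64 (adjusted p = 3.65e-05, Benjamini-Hochberg, quasi-likelihood test of edgeR). With so few reads in controls the 95% interval was wide, from 2.01 to 3.27.

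Chrne encodes the epsilon subunit of the adult receptor (chr11:70614883-70619216, minus strand). Controls 1 to 4 measured 7.595, 5.849, 4.725 and 4.474 normalized CPM and Dnm2 +/K562E mice 1 to 4 measured 7.602, 8.667, 9.442 and 9.051. Control 1 and Dnm2 +/K562E mouse 1 were almost level, and the other mice were set apart by genotype. The mean rose from 5.66 ± 1.42 to 8.69 ± 0.792 normalized CPM (SD, n = 4 each), a log2 fold change of 0.62 (95% interval 0.26 to 0.99, adjusted p = 0.0107, Benjamini-Hochberg, quasi-likelihood test of edgeR). Without control 3, control 4 or Dnm2 +/K562E mouse 3, the log2 fold change was 0.54, 0.52 or 0.5786, under the threshold of 0.58, with adjusted p of 0.0325, 0.0257 and 0.0329.

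**Figure D1:**
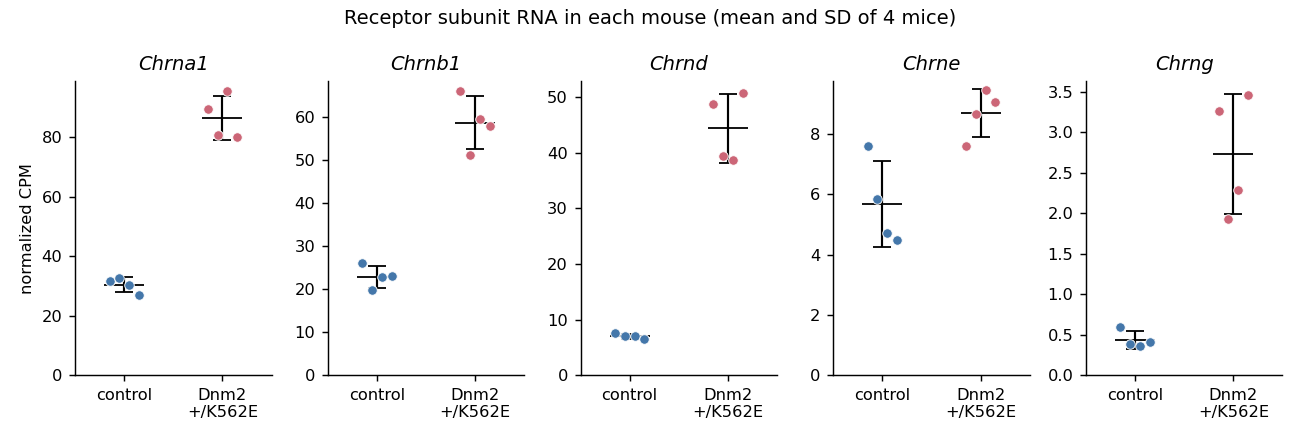
Normalized CPM of each receptor subunit gene (1 panel per gene, each with its own linear axis from 0) in the 4 control and 4 Dnm2 +/K562E mice, with 1 point per mouse and a bar with whiskers for the mean and SD of each group. The Chrnd and Chrng groups are the farthest apart, and for Chrne the highest control (7.595) nearly meets the lowest Dnm2 +/K562E mouse (7.602).

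**Figure D2:**
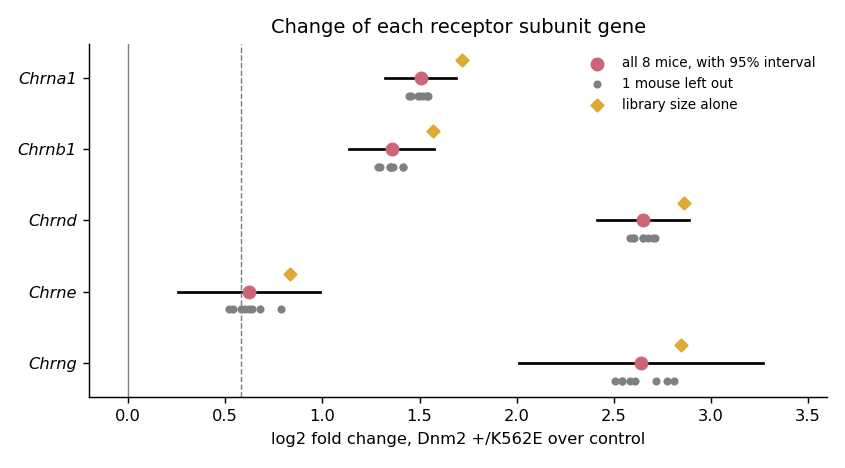
Log2 fold change of each subunit gene, Dnm2 +/K562E over control, with the 95% interval of the fit on all 8 mice (large points and lines), the fits with 1 mouse left out (small points) and the fit scaled by library size alone (diamonds). The dashed line is the threshold of 0.58, which the interval of Chrne crosses and those of the other 4 genes do not.

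The fetal to adult switch was read from the ratio of Chrng to Chrne counts within each mouse, which does not depend on how libraries are scaled. This ratio was 0.0784, 0.066, 0.0758 and 0.0921 in controls 1 to 4 and 0.429, 0.223, 0.242 and 0.382 in Dnm2 +/K562E mice 1 to 4. Every Dnm2 +/K562E mouse lay above every control, and Dnm2 +/K562E mice 1 and 4 had the highest ratios. The geometric mean rose from 0.0775 to 0.307, a 3.95-fold difference, or 1.98 on the log2 scale with SDs of 0.20 in controls and 0.47 in Dnm2 +/K562E mice (exact two-sided permutation p = 0.0286, n = 4 each, the smallest p that 4 against 4 mice allow).

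Chrng thus supplied a minority of the reads of these alternative subunits in each of the 8 muscles. Its share of Chrng and Chrne reads together was 7.27%, 6.19%, 7.05% and 8.43% in controls, and 30.0%, 18.2%, 19.5% and 27.6% in Dnm2 +/K562E mice. The exact Clopper-Pearson 95% intervals reached at most 13.7% in a control and started no lower than 14.8% in a Dnm2 +/K562E mouse, covering counting error only. Per kilobase of exon, since Chrng has the longer exons, the ratio of Chrng to Chrne was 0.0318, 0.0268, 0.0308 and 0.0374 in controls and 0.174, 0.0903, 0.0984 and 0.155 in Dnm2 +/K562E mice.

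The remaining ratios between subunits are described without a test. Chrng to Chrnd, the neighbouring genes with the largest rises, lay at 0.0503 to 0.0784 in controls against 0.0489 to 0.0682 in Dnm2 +/K562E mice, ranges that overlapped. Chrna1 to Chrnb1 also overlapped, at 1.16 to 1.65 in controls and 1.35 to 1.6 in Dnm2 +/K562E mice. The other 8 of the 10 ratios had no overlap, but all 10 are built from the same 5 genes and are not independent. No share was taken over ratios of other genes. Of all single tested genes, 20.6% lay fully above the controls and 20.5% fully below. Chrnd to Chrna1 went from between 0.217 and 0.24 in controls to between 0.405 and 0.632 in Dnm2 +/K562E mice. Chrnd to Chrne showed the widest gap of the 8 ratios without overlap, from between 1.0 and 1.51 to between 4.1 and 6.43. By size of log2 fold change, the 5 genes fell into 3 tiers, with Chrnd and Chrng above Chrna1 and Chrnb1, and Chrne last.

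**Figure D3:**
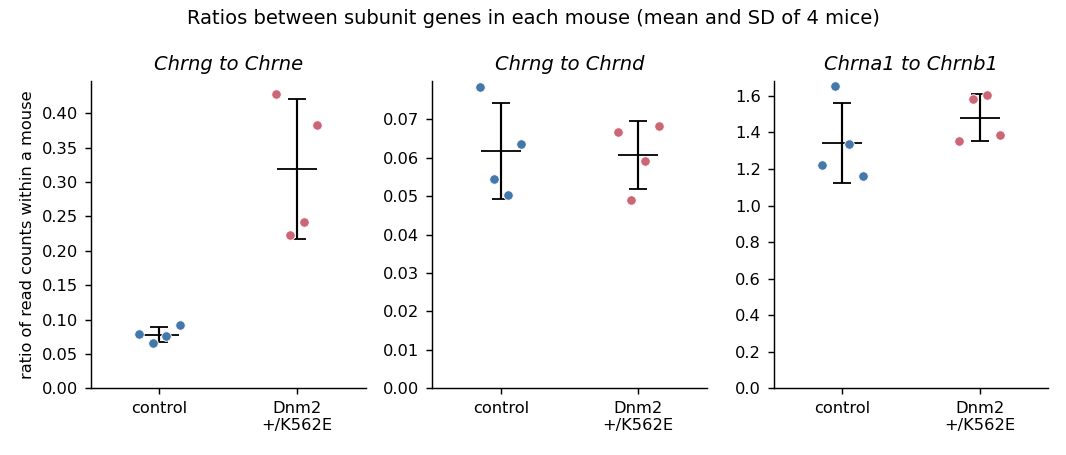
Ratios of read counts within each mouse for 3 gene combinations (linear axes from 0), with 1 point per control or Dnm2 +/K562E mouse and a bar with whiskers for the arithmetic mean and SD of each group. The Chrng to Chrne ratio separates the genotypes (0.066 to 0.0921 against 0.223 to 0.429), whereas Chrng to Chrnd and Chrna1 to Chrnb1 overlap.

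To compare levels between genes, normalized CPM were divided by exon length. In controls the order was Chrnb1 (9.06 ± 1.01 normalized CPM per kb, SD, n = 4), Chrna1 (6.95 ± 0.577), Chrne (3.35 ± 0.841), Chrnd (2.15 ± 0.140) and Chrng (0.105 ± 0.0258), and no neighbours in this order overlapped. In Dnm2 +/K562E mice it was Chrnb1 (23.2 ± 2.41 normalized CPM per kb, SD, n = 4), Chrna1 (19.7 ± 1.67), Chrnd (13.5 ± 1.89), Chrne (5.14 ± 0.469) and Chrng (0.657 ± 0.178), where the ranges of Chrnb1 and Chrna1 overlapped. The order thus differed at a single place, with Chrnd below Chrne in all 4 controls and above it in all 4 Dnm2 +/K562E mice. Lengths of the longest coding transcript in place of all exons gave the same orders.

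Every assembled receptor contains a delta subunit and either gamma or epsilon, so the summed level of Chrng and Chrne was set beside that of Chrnd. Per kilobase, Chrng and Chrne together stood at 2.01, 1.65, 1.33 and 1.39 times Chrnd in controls 1 to 4. In Dnm2 +/K562E mice 1 to 4 they stood at 0.355, 0.466, 0.521 and 0.401 times Chrnd. The sum exceeded Chrnd in all controls and was below it in all Dnm2 +/K562E mice, and these are transcript levels, not amounts of subunit protein.

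**Figure D4:**
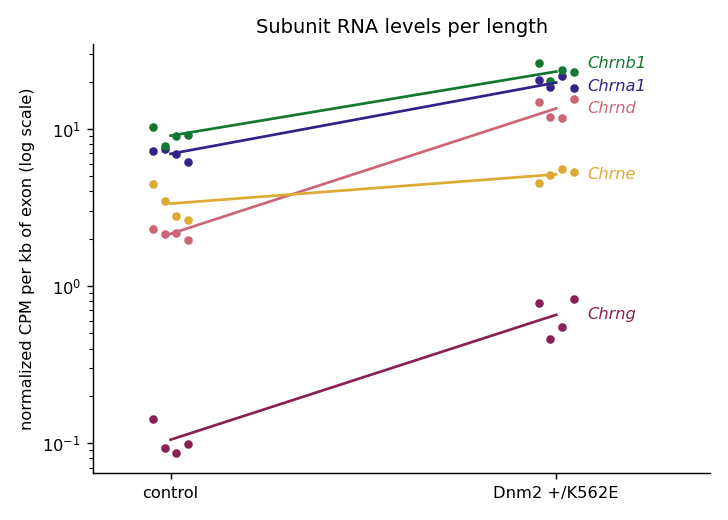
Level of each subunit gene in normalized CPM per kilobase of exon (log axis) in control and Dnm2 +/K562E soleus, with points for mice and lines joining the group means. The Chrnd line crosses the Chrne line, from 2.15 against 3.35 in controls to 13.5 against 5.14 in Dnm2 +/K562E mice.

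Chrnd and Chrng lie side by side on chromosome 1, on the same strand and 4586 bases apart. The flanking genes were looked up after the subunit values had been seen. Eif4e2, which starts 1219 bases beyond Chrng and encodes a cap-binding protein, went from 48.3 to 54.8 normalized CPM on average. Its log2 fold change of 0.18 passed on adjusted p alone (0.0461, Benjamini-Hochberg, quasi-likelihood test of edgeR), so it was not called. Prss56, on the Chrnd side, was nearly without reads in both genotypes and could not be tested. The 6-fold difference of Chrnd and Chrng was thus not seen in Eif4e2, the only nearest neighbour that could be compared. Beside Chrne, Mink1 had a log2 fold change of 0.06, and beside Chrnb1, Fgf11 had 0.04 and Zbtb4 0.35, none of them called. Zbtb4 passed on adjusted p alone, as 22.2% of all tested genes did in that direction. Beside Chrna1, Chn1 at a distance of 30321 bases was not called (-0.08), and Wipf1 on the other side, at 33480 bases, was called higher at 0.75.

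The genes whose profile over the 8 mice was most like that of each subunit were found by the root mean square difference of centred log2 CPM, in which a low value means a close match. For Chrna1 these were Lysmd2 (0.101), Ache (0.111) and Uck2 (0.129), and Chrnb1 differed from Chrna1 by 0.175. Ache encodes acetylcholinesterase, the enzyme that clears acetylcholine from the synaptic cleft. For Chrnd they were Armh4 (0.118), Ndrg4 (0.135) and Rin1 (0.14). For Chrng they were Armh4 (0.21), Ak4 (0.229) and the embryonic and cardiac troponin gene Tnnt2 (0.24), and Chrng differed from Chrnd by 0.214. Chrnb1 was closest to Tmem119 (0.0905), Begain (0.0967) and Paqr7 (0.109), and Chrne to Tmed8 (0.0971), Tbc1d1 (0.105) and Rfc5 (0.112). As the measure takes in the size of the genotype difference, these are genes of like fold change, and Chrnd and Chrne were the least alike among the subunits, at 1.03.

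The receptor family has 11 further subunit genes, mostly neuronal. Of the 3 that could be tested, 0 were called higher and 2 lower by the quasi-likelihood test. Over all tested genes the shares were 12.9% higher and 7.85% lower, and 3 genes are too few to compare with them. Chrna3, Chrna6, Chrna10 and Chrnb4 had no read in any mouse. Chrna2 measured 16.5, 3.68, 4.64 and 3.12 normalized CPM in controls and 0.489, 0.418, 0.382 and 0.892 in Dnm2 +/K562E mice, and fell by 3.68 on the log2 scale (adjusted p = 0.000496, Benjamini-Hochberg, quasi-likelihood test of edgeR). Without control 1, the highest of the controls, the log2 fold change of Chrna2 was -2.82. Chrna9 was also called lower, from 0.298, 0.386, 0.336 and 1.32 normalized CPM to 0.0271, 0.0232, 0.0 and 0.0. It passed the filter only through its control reads, at most 45 in a mouse. With at least 10 counts required in every mouse it was not tested, and 1 gene of this list was called lower. Chrnb2 was not called.

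The genes that gather receptors under the nerve showed a mixed picture. Agrin from the nerve binds Lrp4, which activates the kinase Musk, and Dok7 and rapsyn act downstream. The Agrn transcript was read in RNA of whole soleus, so it does not measure the agrin that the nerve delivers. Of the 8 genes listed for this pathway, 2 were called higher and 0 lower, with a median log2 fold change of -0.32, where all tested genes had 12.9% higher and 7.85% lower and a median of 0.0074. Without control 4 or without Dnm2 +/K562E mouse 4, 1 was called lower, and with no fold threshold 5 were. Musk measured 35.1, 31.2, 33.2 and 28.4 normalized CPM in controls and 52.8, 54.0, 47.1 and 46.7 in Dnm2 +/K562E mice, a log2 fold change of 0.65 (adjusted p = 0.000112, Benjamini-Hochberg, quasi-likelihood test of edgeR). Lrp4 rose with a log2 fold change of 0.92, from 21.8 ± 4.01 to 41.2 ± 1.27 normalized CPM (SD, n = 4 each). Rapsn, which encodes the scaffold bound to the receptor itself, measured 19.7, 22.3, 22.6 and 19.0 normalized CPM in controls and 15.8, 15.4, 15.5 and 17.8 in Dnm2 +/K562E mice. Its log2 fold change of -0.38 did not reach the threshold, nor did those of Agrn (-0.55) and Dok7 (-0.48), although for each of these 3 genes all 4 Dnm2 +/K562E mice lay below all controls, as did 20.5% of all tested genes. Scaled by library size alone these values were -0.16 for Rapsn, -0.34 for Agrn and -0.27 for Dok7.

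Of the 6 genes listed for receptor assembly, chaperones such as Canx and Ric3, none was called by the quasi-likelihood test with the fold threshold, and Canx passed on adjusted p alone (log2 fold change 0.37), as 22.2% of all tested genes did in that direction. Of the 8 genes listed for transcription at synaptic nuclei, 3 were called higher and 0 lower (median log2 fold change 0.27 over the 7 tested), beside 12.9% higher and 7.85% lower over all tested genes. They were the neuregulin receptor gene Erbb2 (log2 fold change 0.96) and the ETS factor genes Etv5 (1.13) and Etv4 (0.65). Etv4 was at 0.54 without control 2. Etv5 rose from 18.9 ± 1.59 to 41.5 ± 2.92 normalized CPM (SD, n = 4 each). Gabpa and Gabpb1, which encode subunits of GABP, the factor for the N-box type printed for Chrne, had log2 fold changes of -0.08 and -0.11 and were not called.

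Among 14 listed myogenic and activity-dependent regulators of subunit promoters, 2 were called higher and 2 lower (median log2 fold change 0.13), and the share called higher was near that of all tested genes (12.9% higher, 7.85% lower). With no fold threshold 6 were called higher, where 22.2% of all tested genes were. Myog, which encodes myogenin, measured 6.91, 4.39, 6.96 and 7.74 normalized CPM in controls and 67.1, 46.6, 47.9 and 61.5 in Dnm2 +/K562E mice, a log2 fold change of 3.10 (adjusted p = 7.9e-07, Benjamini-Hochberg, quasi-likelihood test of edgeR). As for Chrnd and Chrng, Dnm2 +/K562E mice 1 and 4 were the highest. The same held for Myh3, Myl4, Tnnt2, Runx1 and Ncam1. It also held for Trim63, which was called lower, and for Myh8 and Hdac4, which were not called. The share of all tested genes with this order of mice was not taken, and a link between any of these genes was not tested. Id2, an inhibitor of such factors, was called higher at 0.70 and was at 0.577 without Dnm2 +/K562E mouse 2. Dach2, a repressor of Myog, fell by 1.30 on the log2 scale, from 13.2 ± 2.64 to 5.37 ± 0.608 normalized CPM (SD, n = 4 each), and Myf5, also listed among the satellite cell markers, fell by 1.85. Myod1 (-0.35), Myf6 (0.40) and Hdac4 (-0.06), a deacetylase of the denervation response, were not called.

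Of 6 listed genes known to respond to denervation, 3 were called higher and 1 lower, or 2 lower without control 1, with a median log2 fold change of 0.74 (over all tested genes, 12.9% higher and 7.85% lower). Those called higher were the adhesion molecule gene Ncam1 (1.74), Runx1 (2.04) and Gadd45a (1.61). Trim63, a ubiquitin ligase gene of muscle atrophy, fell by 0.86 on the log2 scale, and its companion Fbxo32 was not called (-0.13). Of 6 developmental sarcomere genes, 3 were called higher against the same 12.9%, namely Myl4 (4.84), Myh3 (3.84) and Tnnt2 (2.44), and 0 were called lower (median 1.4). Myh8, the perinatal myosin gene, was not called (0.09).

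In the synaptic cleft and postsynaptic scaffold, 2 of 7 genes were called higher and 0 lower, with a median log2 fold change of 0.067 (over all tested genes, 12.9% higher and 7.85% lower). Ache varied little between mice of the same genotype, at 18.1, 18.2, 18.6 and 18.0 normalized CPM in controls and 52.4, 53.9, 59.0 and 56.1 in Dnm2 +/K562E mice. Its log2 fold change of 1.60 was close to that of Chrna1. Colq, which encodes the collagen tail that anchors acetylcholinesterase, rose with a log2 fold change of 0.77. The utrophin gene Utrn was not called (-0.02).

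**Figure D5:**
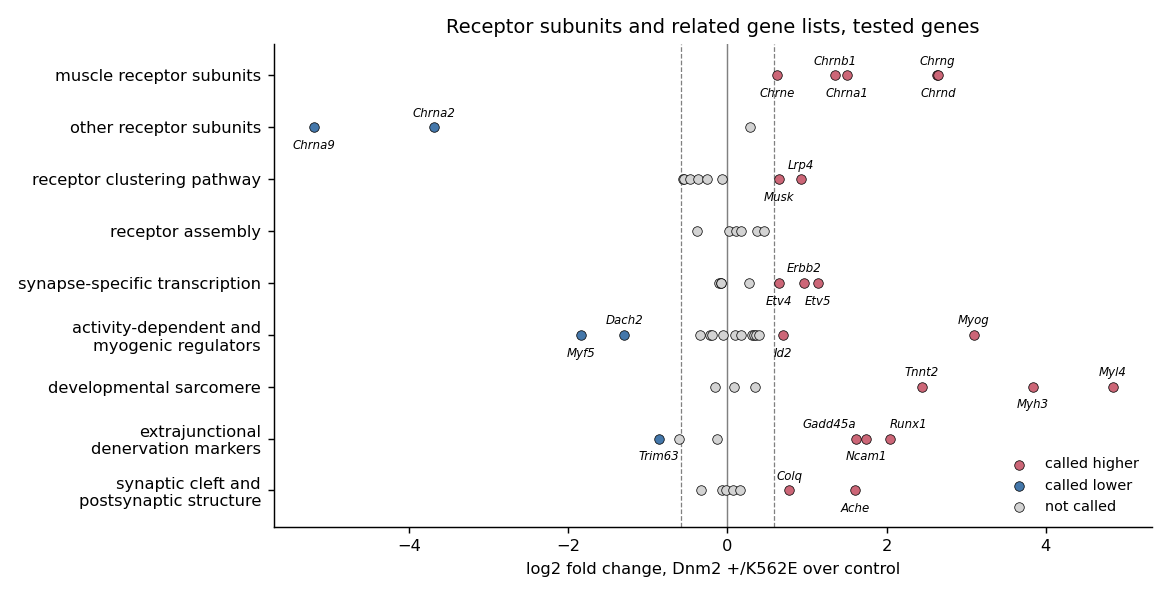
Log2 fold changes, Dnm2 +/K562E over control, of the tested genes of the receptor and of the related lists, with 1 point per gene, called genes in colour and named, and dashed lines at the threshold of 0.58 in either direction. All 5 muscle receptor subunits lie to the right of the threshold, whereas the clustering pathway has 2 of 8 genes there and the assembly list has none.

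Marker genes of other cells also differed between the muscles, and their counts are to be read beside 12.9% of all tested genes called higher and 7.85% called lower. All 6 macrophage markers were called higher, with a summed level of 68.1 to 125.3 normalized CPM in controls against 146.4 to 246.1 in Dnm2 +/K562E mice. All 4 tendon markers were called higher (271.1 to 579.7 against 831.6 to 1115). Of 5 satellite cell markers, 3 were called lower (37.97 to 47.12 against 28.07 to 35.35). Of 7 markers of Schwann cells, the glia that also cap the endplate, none was called (summed level 271.6 to 307.8 against 263.8 to 313.5). Among them Mbp was lower on adjusted p alone, as were 21.7% of all tested genes. Of 4 endothelial markers 1 was called lower (810.3 to 849.8 against 576.2 to 661.4), and 0 were with library size alone or without Dnm2 +/K562E mouse 2. With no fold threshold all 4 were, beside 21.7% of all tested genes.

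The fibre's own markers were lower in sum of normalized CPM. These sums rest on the TMM factors and were not taken with library size alone, where the log2 fold change of Mb went from -0.14 to 0.07. The 7 slow fibre markers summed to between 21270 and 25030 normalized CPM in controls and between 12790 and 15830 in Dnm2 +/K562E mice, with 3 called lower, or 1 with library size alone. With no fold threshold all 7 were called lower, as were 21.7% of all tested genes. Of 5 general skeletal fibre markers, 1 was called higher and 2 lower (45620 to 53530 against 34450 to 39130), or 1 lower with library size alone or without Dnm2 +/K562E mouse 1. None of the listed markers was at 0 in all mice. The subunit genes thus rose in muscles in which fibre markers summed lower and macrophage and tendon markers higher, all in normalized CPM. The part of these shifts in the subunit values was not tested.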

How the data were processed

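RNA from soleus of 4 control and 4 Dnm2 +/K562E mice was sequenced, and for each mouse the authors deposited raw counts per Ensembl gene, without normalization. Per the labels and methods, the authors trimmed reads with Trimmomatic 0.33, aligned them to GRCm38.p5 with STAR 2.5.1b and counted them with featureCounts (mapping quality of at least 10). Reads over several genes counted for each of them, multi-mapping reads at the primary alignment, and the strand setting is not given in the sources used here. The labels name a stranded total RNA kit and the methods a poly A kit. Depth ran from 33407430 to 48832814 counts per mouse. No exon of the 5 genes overlaps an exon of another gene.

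Mice were grouped by the genotype in the labels, and the description of Dnm2 +/K562E mouse 1 spells the mutation otherwise than its title and genotype do. Of 22880 identifiers, 22647 matched GENCODE M21 (GRCm38). The counts were filtered with filterByExpr (minimum count 10, minimum total 15) and tested with the quasi-likelihood F-test of edgeR 4.0.16 in R 4.3.3 with TMM factors, over all 14001 genes, with Benjamini-Hochberg adjustment. Calls needed a log2 fold change of 0.58 or more in size together with an adjusted p under 0.05, the thresholds of the study, whose own test, the exact test of edgeR, was an alternative. Standard errors are those implied by the F statistic. The Chrng to Chrne ratio was compared with an exact permutation test (scipy 1.17.1). Nothing in the labels says that the mice came from separate litters, and p-values measure the spread between these mice. On simulated counts in which 200 genes differed by 1.5 on the log2 scale, 90% of them were called in the right direction. Of the 187 genes called there, 7 were unchanged. The simulated rises and falls were equal in number, unlike those of the data, and a difference as small as that of Chrne was not simulated.

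The 5 genes, the gene lists and the markers were chosen with earlier results of these data known. Genes named were the 5 subunits, Dnm2, the listed genes and the 3 genes most like each subunit, some listed genes are not reported here and are left out of the list counts, and the neighbouring genes were added after their values were seen. Alternatives were the exact test, DESeq2 1.42.0, median-ratio (RLE) factors, library size alone, no filter, at least 10 counts in every mouse, no fold threshold, a replicate block by either numbering, pseudocounts for the ratio, and leaving out each mouse. The list counts under these alternatives were chosen after seeing the data.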

Additional observations from a re-analysis of the deposited data

Results flagged for a closer look

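None of the 5 subunit genes, nor the Chrng to Chrne ratio, had a mouse far from the others of its genotype. Over 60 groups of 4 mice checked by Dixon's test, 6 had such a mouse, where chance gives about 1 in 20 groups. Dnm2 was at 59.2 normalized CPM in control 3, against 68.5 to 68.83 in the other controls. Chrna2 was at 16.5 normalized CPM in control 1, against 3.12 to 4.635 in the other controls, and Chrna9 at 1.325 in control 4, against 0.2979 to 0.386. Id2 was at 11.11 normalized CPM in Dnm2 +/K562E mouse 2, against 8.118 to 8.565 in the others. Myl4 was at 10.5 normalized CPM in control 3, against 7.893 to 8.254, and Rapsn at 17.75 in Dnm2 +/K562E mouse 4, against 15.41 to 15.8.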

How the results depend on the processing

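With all mice, all 5 subunit genes were called higher under every alternative, with log2 fold changes of 1.5 to 1.72 for Chrna1, 1.35 to 1.57 for Chrnb1, 2.64 to 2.86 for Chrnd, 0.62 to 0.83 for Chrne and 2.62 to 2.85 for Chrng. The numbers of genes called higher and lower moved to 2865 and 564 with library size alone, and to 3103 and 3036 with no fold threshold, from 1806 and 1099. With 1 mouse left out, they ran from 1588 to 1970 and from 1026 to 1208, and 4 to 5 subunit genes were called. In those fits Chrna1 ran from 1.44 to 1.54, Chrnb1 from 1.29 to 1.42, Chrnd from 2.58 to 2.71, Chrng from 2.51 to 2.81 and Chrne from 0.52 to 0.79, Chrne falling under the fold threshold without control 3 (0.54), control 4 (0.52) or Dnm2 +/K562E mouse 3 (0.5786). The log2 ratio of Chrng to Chrne ran from 1.82 to 2.14 with 1 mouse left out (exact permutation p = 0.0571, the smallest that 3 against 4 mice allow) and was 1.66 with 5 counts added to each gene.

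Mice that share a number are separate animals, and the correlation of their deviations averaged -0.114 by the title numbers and -0.0302 by the description numbers, so the numbers were not taken to pair the mice. With the replicate block by title numbers, 1637 genes were called higher and 1036 lower, and all 5 subunit genes stayed called, Chrne at 0.64. The ratio under either replicate block was 1.98 (exact sign-flip permutation p = 0.125, the smallest that 4 pairs allow).

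The depth limits Chrng most, with 13 to 20 reads per control. Of the list counts, 17 moved by more than 1.5 times and 323 did not. The causes of these shifts were not tested.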
